A study of Mus musculus with 24 samples.

Results

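The 52 genes described here build or maintain the photoreceptor cilium or are mutated in ciliopathies, and they were chosen by name from knowledge of the organelle, with earlier results of these data known. They are 52 of the 28802 genes in the deposited table, and all 52 were among the 16400 tested, those whose mean over the libraries reached 0.5 cpm. The unit cpm gives a gene's reads as a share of all reads of its library, scaled to one fixed total. The study examined how gene expression in the retina relates to contrast sensitivity, refractive error and susceptibility to myopia across genetically diverse mouse strains. Retinas of untreated, wild-type mice were taken at postnatal day 28 and their RNA was sequenced. The mice belonged to 8 inbred strains, namely 129S1/Svlmj, C57BL/6J, NOD/ShiLtJ, A/J, PWK/PhJ, WSB/EiJ, NZO/HlLtJ and CAST/EiJ, with 3 libraries each and 24 in all. PWK/PhJ and CAST/EiJ are wild-derived strains of other subspecies than the classical laboratory strains, WSB/EiJ is wild-derived too, and all libraries were aligned to 1 reference genome, that of C57BL/6J. What part that alignment had in a strain's level was not tested.

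A photoreceptor carries its light-sensing membranes in an outer segment, which is a modified primary cilium. The outer segment joins the cell body through a thin connecting cilium, which corresponds to the transition zone of other cilia and grows from a basal body. Intraflagellar transport trains, driven by kinesin-2 motors, carry cargo along the axoneme, and the BBSome, a coat-like complex, moves membrane proteins out of the outer segment. Defects of these parts cause retinal degeneration alone or within syndromes such as Bardet-Biedl, Joubert and Senior-Løken syndrome.

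The read totals by which the values were scaled, read back from the spacing of the lowest values, were 57607000 to 78150000 per library, and they need not equal the number of reads sequenced. The floor of detection, 3 reads, lay at 0.0384 to 0.0521 cpm, depending on the library, and this floor takes account of counting error alone. Every member lay above that floor in all 24 libraries, since the lowest single value was 0.77 cpm, for the kinesin Kif17. Labels do not say whether the 3 libraries of a strain came from separate animals, although the study's methods treat them as biological replicates. The p-values given here therefore measure the spread between these libraries.

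Marker lists of retinal cells and of other tissues were examined, and no listed gene of the table was under the floor in all 24 libraries. This held for the lens, blood and pigment epithelium lists too, so detection alone did not check retinal identity. Summed over 11 rod genes, with Gnat1 the most abundant, libraries held 6194 to 8257 cpm, and 129S1/Svlmj had the lowest strain mean, 6861 cpm, and CAST/EiJ the highest, 7947 cpm. Cone markers, 8 genes led by Opn1sw, summed to 359 cpm in PWK/PhJ, the highest strain mean, and to 224 cpm in CAST/EiJ, the lowest sum, where Opn1sw held 60.2 cpm. By the median difference of the 8 genes from the other strains NOD/ShiLtJ was lowest, at -0.34 log2, and CAST/EiJ lay at -0.15 log2. Markers of the other cells of the retina were summed in the same way. Bipolar markers summed to 436 cpm in C57BL/6J and 591 cpm in WSB/EiJ, amacrine and horizontal markers to 137 cpm in NOD/ShiLtJ and 165 cpm in WSB/EiJ, and ganglion cell markers to 149 cpm in CAST/EiJ and 238 cpm in C57BL/6J. Glial markers ran from 818 cpm in CAST/EiJ to 1093 cpm in NOD/ShiLtJ, and blood markers from 12.3 cpm in CAST/EiJ to 28.4 cpm in NOD/ShiLtJ. Pigment epithelium markers, a sign of tissue next to the retina, summed to 65.8 cpm in WSB/EiJ and 56.1 cpm in A/J but 15.6 cpm in CAST/EiJ and 16.4 cpm in PWK/PhJ. In bulk RNA, fewer cells of a type and less RNA per cell cannot be told apart, and the part of these markers in the members' differences was not tested.

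A few libraries stood apart. WSB/EiJ replicate 2 had the lowest sum of rod markers, 6194 cpm against 7674 and 6980 cpm in the other libraries of its strain. Lens markers, 7 genes led by Cryaa, summed to 1821 cpm in NOD/ShiLtJ replicate 2, 1619 cpm in 129S1/Svlmj replicate 2 and 213 cpm in C57BL/6J replicate 2, against a median of 19.7 cpm over the 24 libraries. With these 3 libraries left out, an alternative chosen after seeing the data, every member called in a strain with all 24 libraries was called again, and 2 more, Cdhr1 and Nphp4, joined them at the edge of the threshold. Xist, which is transcribed from the inactive X chromosome, reached 906 to 1081 cpm in 4 libraries, 129S1/Svlmj replicate 3, C57BL/6J replicate 3, PWK/PhJ replicate 2 and CAST/EiJ replicate 3. In those 4 the Y-linked Ddx3y was at most 0.118 cpm, whereas the other 20 held 24.8 to 35.2 cpm of Ddx3y and at most 9.71 cpm of Xist. Labels give no sex, and Rpgr is the member on the X chromosome. Nnt, checked because C57BL/6J carries a deletion in it, averaged 4.82 cpm in C57BL/6J and was lower in NZO/HlLtJ, at 3.41 cpm, 129S1/Svlmj, at 3.73 cpm, and WSB/EiJ and CAST/EiJ, each at 4.09 cpm, so its summed level could not check the labels.

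Levels of different members were compared per kilobase of exon. Rp1, a microtubule-associated protein of the axoneme, was the most abundant member at 116 cpm per kb, followed by the outer segment base genes Cdhr1 at 56.5 and Prom1 at 38.1 cpm per kb. Rpgrip1 of the connecting cilium reached 32.5, the axonemal Rp1l1 32.0 and the tubby protein Tulp1 29.8 cpm per kb. The median over all 52 was 5.36 cpm per kb. BBSome subunits lay close together, from 5.27 cpm per kb for Bbs1 to 12.4 for Bbs9. Intraflagellar transport was lower, with medians of 2.65 cpm per kb for complex B and 2.27 for complex A. Kif17, the homodimeric kinesin-2, was lowest at 0.294 cpm per kb, below Tulp3 at 0.672 and Ift27 at 0.993. Together the 52 genes held 3743 to 4401 cpm per library, and the strain mean was lowest in 129S1/Svlmj, 3825 ± 77.3 cpm, and highest in C57BL/6J, 4338 ± 60.1 cpm (SD, n = 3).

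Most members differed among strains, but by small amounts. An F-test over the 8 strains, in a limma model fitted to log2(cpm + 1) of all 16400 genes, gave an adjusted p under 0.01 for 45 of 52 members, 86.5%, where 70.6% of all genes tested passed. The 7 that missed the threshold were Bbs10 (adjusted p = 0.0224), Ift27 (0.0237), Ift80 (0.0986), Kif3a (0.136), Spata7 (0.0143), Topors (0.579) and Tulp1 (0.0370). The span, meaning the highest minus the lowest strain mean on the log2(cpm + 1) scale, had a median of 0.51 over the members and 0.43 over all genes. Members also varied little within a strain, with a median SD of 0.08 log2 against 0.09 for all genes. Of the 1456 comparisons of a member between 2 strains, 111 were called, 7.62%, at an adjusted p under 0.01 and a difference of at least 0.5 log2 (1.41-fold), against 9.11% of such comparisons over all genes. For 25 members no pair of strains was called, and the share of all genes without such a call is not given.

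**Figure D1:**
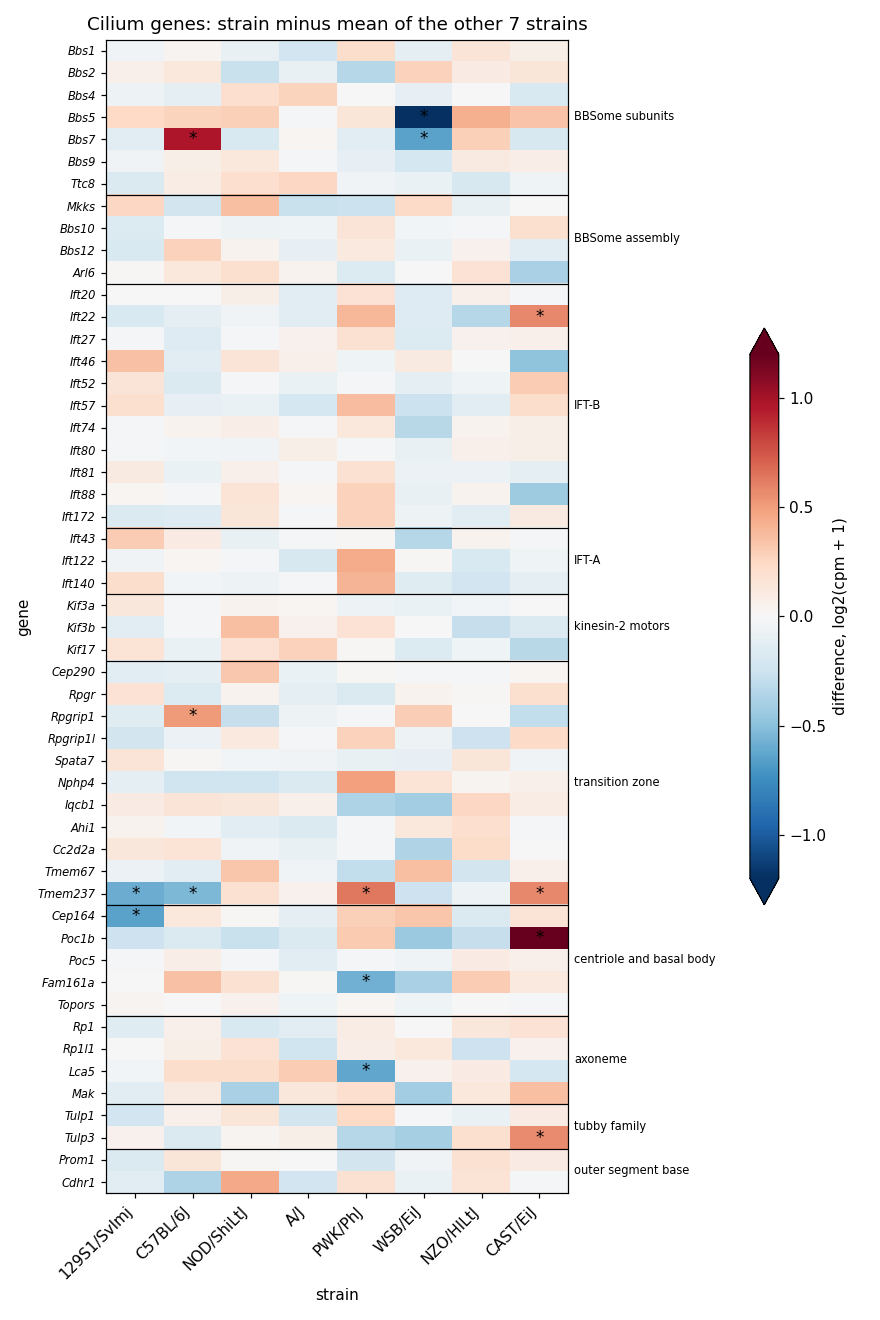
Difference of each strain from the mean of the other 7 strains on the log2(cpm + 1) scale for all 52 members, ordered by role, with values past the ends of the colour scale in its end colours and an asterisk on each call (adjusted p under 0.01 and at least 0.5 log2). Calls fall on 10 members, among them Tmem237 in 4 strains and Bbs7 in 2, and no asterisk stands under NOD/ShiLtJ, A/J or NZO/HlLtJ.

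Each strain was then set against the mean of the other 7, to ask where a member was high or low; these 8 contrasts share libraries. At an adjusted p under 0.01 and at least 0.5 log2, 10 of 52 members were called in at least 1 strain, a share slightly below the 21.4% of all genes. In CAST/EiJ 4 members were higher, Poc1b, Tmem237, Ift22 and Tulp3, 7.69% against 4.20% of all genes. There 0 members were lower in limma, with 6.13% of all genes called lower. WSB/EiJ had 2 members lower, Bbs5 and Bbs7, 3.85% against 2.87% of all genes, and 0 higher in limma, where 2.22% of all genes were. PWK/PhJ had Tmem237 higher (1 member, 1.92%, against 4.72% of all genes) and Fam161a and Lca5 lower (2 members, 3.85%, against 5.41%). C57BL/6J had Bbs7 and Rpgrip1 higher (2 members, 3.85%, against 2.46% of all genes) and Tmem237 lower (1 member, 1.92%, against 1.57%). In 129S1/Svlmj, Tmem237 and Cep164 were lower (2 members, 3.85%, against 1.75% of all genes) and 0 were higher in limma (2.16% of all genes).

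For 3 strains limma called 0 members in either direction. NOD/ShiLtJ, with 2.47% of all genes higher and 1.59% lower, had 28 members (53.8%) at an unadjusted p under 0.05, which 39.1% of all genes reached, and its largest member difference was Cdhr1 at 0.46 log2. A/J, with 2.11% of all genes higher and 1.84% lower, had 23 members (44.2%) at an unadjusted p under 0.05, against 42.5% of all genes, led by Lca5 at 0.30 log2. NZO/HlLtJ, with 1.87% higher and 2.16% lower, had 29 such members (55.8%), against 40.9% of all genes, led by Bbs5 at 0.43 log2. None of these members reached the 0.5 log2 that a call also required. In the other 5 strains 28 to 34 members, 53.8 to 65.4%, had an unadjusted p under 0.05, as did 37.8 to 57.2% of all genes, and in CAST/EiJ the members' 53.8% lay below the 57.2% of all genes. By the adjusted p alone, without the minimum difference, the largest counts in each direction were 18 members higher in PWK/PhJ and 13 lower in WSB/EiJ, where 21.4% and 17.5% of all genes passed in the same directions.

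The order of strain means is given as a description, without a test. PWK/PhJ had the highest mean for 14 members, and WSB/EiJ had the lowest for 16. These counts include members that missed the F-test, such as Ift27, and the matching shares of all genes are not given. Among the 14 were 7 of the 11 complex B genes (Ift20, Ift27, Ift57, Ift74, Ift81, Ift88 and Ift172) and the complex A genes Ift122 and Ift140, but not Ift43. The 16 lowest in WSB/EiJ spread over most roles and included the BBSome subunits Bbs5, Bbs7 and Bbs9. In 13 members, 25.0%, the highest strain lay above all libraries of the other strains, as in 22.5% of all genes tested. In 16, 30.8%, the lowest strain lay below them all, as in 20.8% of all genes. The members' median difference from the other strains was -0.08 log2 in WSB/EiJ, where that of all genes was -0.04 log2, and 0.06 log2 in CAST/EiJ, where that of all genes was -0.03 log2. Under 3 other scalings of the libraries the members' median lay between -0.05 and -0.04 log2 in WSB/EiJ and between 0.07 and 0.09 log2 in CAST/EiJ.

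The BBSome subunits held the widest difference of any member. Bbs5, at chr2:69647171-69667571 (GRCm38, plus strand), encodes a subunit that binds phosphoinositides. Its level was 4.94, 4.90 and 4.67 cpm in WSB/EiJ. It was 18.1, 16.9 and 18.99 cpm in 129S1/Svlmj, 17.6, 17.95 and 19.2 in C57BL/6J, 19.4, 18.5 and 17.7 in NOD/ShiLtJ, and 15.1, 14.3 and 16.2 in A/J. The remaining strains held 17.6, 18.1 and 15.2 cpm in PWK/PhJ, 20.99, 19.8 and 19.98 in NZO/HlLtJ, and 19.3, 18.6 and 19.7 in CAST/EiJ. All 3 libraries of WSB/EiJ lay far below the 21 others, which overlapped one another in a narrow band apart from NZO/HlLtJ at its top. WSB/EiJ differed from the other 7 by -1.70 log2 (SE 0.0462, adjusted p = 2.03e-18), or 3.25-fold lower (folds here are of cpm + 1), and the 7 strain pairs called for Bbs5 were the 7 that include WSB/EiJ.

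Bbs7 (chr3:36573142-36613477), a propeller-shaped subunit of the same complex, separated strains at both ends. Its values were 67.7, 60.3 and 63.7 cpm in C57BL/6J and 23.4, 25.5 and 21.6 in WSB/EiJ. Between them lay 32.2, 31.8 and 33.04 cpm in 129S1/Svlmj, 33.4, 30.3 and 30.2 in NOD/ShiLtJ, and 34.05, 35.02 and 37.4 in A/J. A further 3 strains held 33.5, 32.9 and 30.4 cpm in PWK/PhJ, 43.98, 40.5 and 40.9 in NZO/HlLtJ, and 31.2, 28.6 and 33.8 in CAST/EiJ. C57BL/6J stood above every other library and WSB/EiJ below every other, with no overlap at either end. The difference from the other 7 was 0.97 log2 (SE 0.0490, adjusted p = 2.56e-13) in C57BL/6J and -0.64 log2 (SE 0.0490, adjusted p = 4.24e-10) in WSB/EiJ, 1.96-fold higher and 1.56-fold lower.

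The other 5 BBSome subunits passed the F-test, as did 70.6% of all genes, with smaller spans and no call in a strain, which 21.4% of all genes had. Bbs9, a scaffold subunit with the highest mean of the group, held 85.1, 81.2 and 84.5 cpm in NOD/ShiLtJ and 69.4, 65.7 and 68.2 in WSB/EiJ, and the other 18 libraries ran from 70.1 to 87.3 cpm. WSB/EiJ was the lowest strain here as well, below all other libraries, by 0.30 log2 (SE 0.0483, adjusted p = 3.30e-05) from NOD/ShiLtJ. Bbs1 ran from 33.5 to 47.7 cpm over the 24 libraries, Bbs2 from 19.9 to 32.5 cpm, Bbs4 from 41.6 to 58.6 cpm and Ttc8, also known as BBS8, from 28.98 to 42.4 cpm. Bbs2 was highest in WSB/EiJ and lowest in PWK/PhJ, with a span of 0.54 log2 (SE 0.0588, adjusted p = 1.38e-07). That pair was the 1 called among these 5 genes. WSB/EiJ was thus the lowest strain for Bbs5, Bbs7 and Bbs9 and the highest for Bbs2.

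BBSome assembly needs the chaperonin-like proteins Mkks, Bbs10 and Bbs12, and the GTPase Arl6 brings the finished complex to membranes. None of the 4 was called in a strain by limma, where 21.4% of all genes were, and 3 of 4 passed the F-test, where 70.6% of all genes did. Arl6, the most abundant of them, held 42.02, 38.9 and 37.3 cpm in NOD/ShiLtJ and 26.7, 26.3 and 29.6 in CAST/EiJ, with 30.3 to 42.8 cpm in the other 18 libraries. CAST/EiJ lay below all other libraries, and its pair with NOD/ShiLtJ was the 1 called for Arl6, at 0.50 log2 (SE 0.0667, adjusted p = 2.39e-06). Without NOD/ShiLtJ replicate 1 that span was 0.46 log2, below the minimum for a call. Mkks ranged from 9.60 to 15.9 cpm with a span of 0.54 log2 (SE 0.0629, adjusted p = 3.09e-07) between NOD/ShiLtJ and A/J, but 29.3% of its exon bases are shared with another gene model on the same strand, so its level is uncertain. Bbs10 ranged from 5.74 to 8.54 cpm and Bbs12 from 10.7 to 16.9 cpm.

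**Figure D2:**
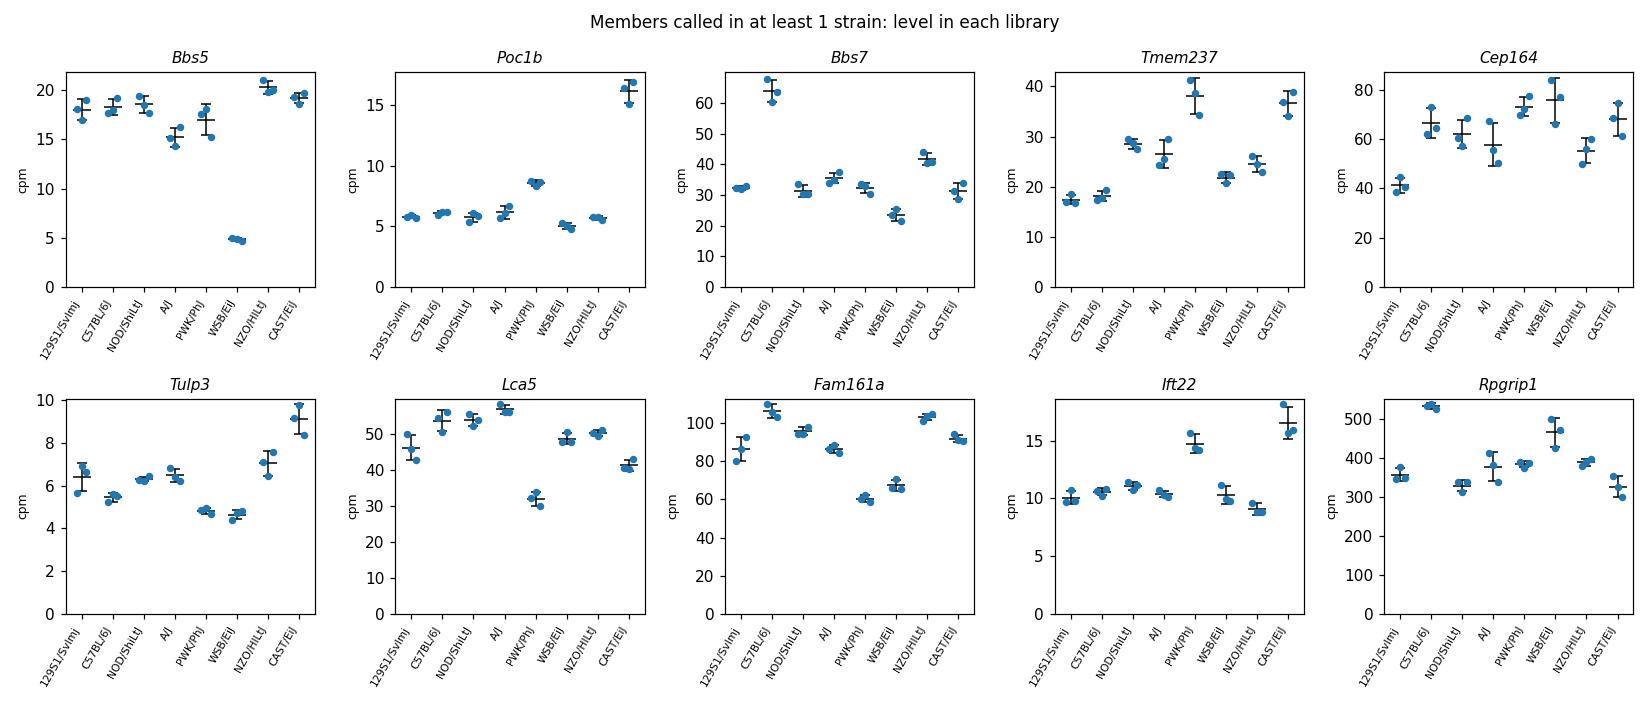
Level in cpm of the 10 members called in at least 1 strain, with a dot for each library and the mean ± SD of each strain (n = 3), all axes starting at 0. Bbs5 in WSB/EiJ, Poc1b in CAST/EiJ and Bbs7 in C57BL/6J stand clear of all other libraries.

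Intraflagellar transport complex B, which carries cargo towards the ciliary tip, gave 9 of 11 genes past the F-test and 1 called in a strain. Of all genes tested, 70.6% passed the F-test and 21.4% were called in a strain. Ift22 (chr5:136908150-136915404), a small GTPase-like subunit also named Rabl5, was 18.2, 15.7 and 15.9 cpm in CAST/EiJ. Other strains held 9.70, 10.7 and 9.78 cpm in 129S1/Svlmj, 10.7, 10.2 and 10.8 in C57BL/6J, 11.4, 10.7 and 11.2 in NOD/ShiLtJ, and 10.7, 10.3 and 10.1 in A/J. The rest were 15.7, 14.4 and 14.2 cpm in PWK/PhJ, 11.2, 9.94 and 9.81 in WSB/EiJ, and 9.65, 8.81 and 8.78 in NZO/HlLtJ. CAST/EiJ was highest but overlapped its nearest strain, while NZO/HlLtJ lay below all other libraries. CAST/EiJ differed from the other 7 by 0.57 log2 (SE 0.0467, adjusted p = 5.35e-10), 1.49-fold.

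Ift46 and Ift88, core subunits of complex B, were low in CAST/EiJ, where Ift22 was high. Ift46 held 11.7, 12.7 and 12.9 cpm in 129S1/Svlmj and 7.29, 6.83 and 7.24 in CAST/EiJ, and the other 18 libraries lay between them at 8.69 to 11.2 cpm. Its 2 end strains thus overlapped no other, and the span was 0.72 log2 (SE 0.0588, adjusted p = 1.01e-09). Ift88 held 15.6, 16.03 and 14.00 cpm in PWK/PhJ and 9.18, 9.50 and 9.96 in CAST/EiJ, with 11.5 to 14.7 cpm elsewhere. CAST/EiJ was again below all other libraries, and the span was 0.62 log2 (SE 0.0583, adjusted p = 1.22e-08). Neither gene reached the minimum difference against the mean of the other 7 strains.

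Ift80, the complex B gene with the highest mean, was among the flattest members. It held 34.7, 33.4 and 34.9 cpm in A/J and 31.9, 31.7 and 29.6 in WSB/EiJ, and the other 18 libraries, at 29.8 to 36.2 cpm, overlapped both, with a span of 0.14 log2 (SE 0.0507, adjusted p = 0.0348). Ift57 had the next span of complex B, 0.56 log2 (SE 0.0631, adjusted p = 2.40e-07) between PWK/PhJ and WSB/EiJ, over a range of 5.61 to 10.1 cpm, and it shares 7.86% of its exon bases with an antisense gene that the table does not list. Ift20, which also serves at the Golgi, ranged from 11.1 to 15.6 cpm, Ift27, a GTPase that links trains to the BBSome, from 2.15 to 3.57 cpm and Ift52 from 6.48 to 9.88 cpm. Ift74 ranged from 9.68 to 14.7 cpm, its partner in tubulin binding Ift81 from 26.9 to 36.2 cpm and Ift172 from 14.4 to 22.3 cpm. No pair of strains was called for these 6.

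Complex A, which serves return transport and the entry of membrane proteins, gave 3 of 3 genes past the F-test and 0 called in a strain by limma. The shares of all genes were 70.6% and 21.4%. Spans of complex A were 0.56 to 0.57 log2. Ift122, with the highest mean cpm of the 3 though not per kilobase, held 30.5, 32.2 and 29.6 cpm in PWK/PhJ and 20.3, 21.1 and 20.4 in A/J. The other 18 libraries ran from 20.2 to 25.8 cpm. Ift140 held 20.5, 19.9 and 19.8 cpm in PWK/PhJ and 12.6, 13.1 and 14.3 in NZO/HlLtJ, with 12.9 to 18.5 cpm in the others. For both, PWK/PhJ lay above all other libraries, by 0.56 log2 (SE 0.0627, adjusted p = 2.14e-07) and 0.56 log2 (SE 0.0701, adjusted p = 1.02e-06) from the lowest strain. Ift43, the small subunit, held 5.02, 6.45 and 5.33 cpm in 129S1/Svlmj and 3.70, 2.98 and 3.63 in WSB/EiJ and 3.75 to 5.11 cpm elsewhere, so that WSB/EiJ lay below the rest, with a span of 0.57 log2 (SE 0.0812, adjusted p = 6.17e-06). Without 129S1/Svlmj replicate 2 that span was 0.48 log2, below the minimum for a call.

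Kinesin-2 motors drive the trains outward. Kif3b, a subunit of the heterotrimeric motor, held 61.2, 54.8 and 55.9 cpm in NOD/ShiLtJ and 39.5, 38.2 and 37.6 in NZO/HlLtJ, with 39.1 to 51.9 cpm in the other 18 libraries. NOD/ShiLtJ lay above all other libraries, and the span was 0.56 log2 (SE 0.0561, adjusted p = 3.25e-08). Kif3a, its partner subunit, held 27.3, 27.9 and 25.5 cpm in 129S1/Svlmj and 23.1, 23.5 and 23.6 in WSB/EiJ, and the other libraries, at 21.7 to 27.3 cpm, overlapped both, with a span of 0.19 log2 (SE 0.0621, adjusted p = 0.0189) that passed the threshold without PWK/PhJ replicate 1 (adjusted p = 0.00245). Kif17 ranged from 0.770 to 1.91 cpm, highest in A/J and lowest in CAST/EiJ, with a span of 0.53 log2 (SE 0.0919, adjusted p = 8.12e-05). In cpm its highest strain mean was 1.93 times its lowest, and the 1 cpm added before the log narrows the span of a gene this low.

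The transition zone controls what enters the outer segment, and 10 of its 11 genes passed the F-test, where 70.6% of all genes did. Tmem237 (chr1:59100590-59120408), a membrane protein of that zone mutated in Joubert syndrome, was called in more strains than any other member. It was 41.2, 38.8 and 34.3 cpm in PWK/PhJ, and 37.00, 34.04 and 38.9 in CAST/EiJ. It was lowest with 17.1, 18.5 and 16.8 cpm in 129S1/Svlmj, and 17.3, 17.8 and 19.3 in C57BL/6J. In between lay 29.6, 28.6 and 27.5 cpm in NOD/ShiLtJ, 24.3, 25.6 and 29.6 in A/J, 22.5, 20.7 and 22.4 in WSB/EiJ, and 26.1, 24.6 and 22.9 in NZO/HlLtJ. The 6 libraries of PWK/PhJ and CAST/EiJ overlapped each other and stood above the other 18, and the 6 of 129S1/Svlmj and C57BL/6J overlapped each other at the bottom.

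PWK/PhJ differed from the other 7 by 0.64 log2 (SE 0.0555, adjusted p = 1.79e-09) and CAST/EiJ by 0.58 log2 (SE 0.0555, adjusted p = 8.92e-09) in Tmem237. The differences of 129S1/Svlmj and C57BL/6J were -0.60 log2 (SE 0.0555, adjusted p = 1.47e-08) and -0.54 log2 (SE 0.0555, adjusted p = 7.07e-08). Of its 28 strain pairs, 13 were called, the most of any member. The counting strand is not stated, and 10.5% of the exon bases of Tmem237 lie opposite the gene G730003C15Rik, which averaged 0.68 to 0.95 cpm in 7 strains and 2.45 cpm in CAST/EiJ. The Tmem237 level in CAST/EiJ is uncertain to that extent, while the partner in PWK/PhJ, at 0.85 cpm, lay within the range of the other strains.

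Rpgrip1 (chr14:52110704-52163546) anchors RPGR in the connecting cilium and is the most abundant transition zone gene. Its values were 533, 538 and 524 cpm in C57BL/6J. Others held 344, 375 and 349 cpm in 129S1/Svlmj, 337, 311 and 338 in NOD/ShiLtJ, 411, 381 and 338 in A/J, and 388, 374 and 387 in PWK/PhJ. The rest were 499, 426 and 471 cpm in WSB/EiJ, 378, 389.6 and 397 in NZO/HlLtJ, and 353, 325 and 299 in CAST/EiJ. C57BL/6J lay above all other libraries, and the difference from the other 7 was 0.51 log2 (SE 0.0505, adjusted p = 3.23e-08), 1.43-fold, close to the minimum for a call. Of its exon bases 8.70% lie opposite Supt16, whose strain means ran from 37.4 to 42.2 cpm, so with the counting strand not stated its level is uncertain to that extent.

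Nphp4, a scaffold protein of the transition zone, held 8.94, 9.50 and 10.3 cpm in PWK/PhJ and 5.74, 5.31 and 6.31 in NOD/ShiLtJ, with 5.35 to 8.20 cpm in the other 18 libraries. PWK/PhJ lay above all others, and the span was 0.64 log2 (SE 0.0960, adjusted p = 1.21e-05). Against the other 7 strains PWK/PhJ differed by 0.50 log2 (SE 0.0726, adjusted p = 5.05e-06), just under the minimum for a call, and by 0.50 log2 (adjusted p = 5.85e-06) without the 3 libraries high in lens markers. Iqcb1, also called nephrocystin-5, held 8.87, 8.37 and 8.42 cpm in NZO/HlLtJ and 5.67, 5.19 and 5.35 in WSB/EiJ, and 5.38 to 8.69 cpm in the rest. PWK/PhJ stood beside WSB/EiJ at the low end, with 5.47, 5.88 and 5.38 cpm in PWK/PhJ, and the span was 0.58 log2 (SE 0.0626, adjusted p = 1.18e-07). Tmem67, or meckelin, held 12.5, 12.4 and 11.9 cpm in WSB/EiJ and 7.64, 7.73 and 8.42 in PWK/PhJ. NOD/ShiLtJ stood beside WSB/EiJ at the high end, with 11.9, 12.1 and 12.1 cpm in NOD/ShiLtJ, and the span was 0.57 log2 (SE 0.0468, adjusted p = 1.10e-09). Of its exon bases 5.42% are shared with other gene models, 3.73% opposite Rbm12b2, whose strain means ran from 24.6 to 29.8 cpm, so its level is uncertain to that extent.

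Cep290, a large protein that links membrane and microtubules in the connecting cilium, held 159, 148 and 153 cpm in NOD/ShiLtJ, above all other libraries, which ran no lower than 115 cpm, and its span was 0.40 log2 (SE 0.0413, adjusted p = 5.91e-08). No pair of strains was called for it, and 7.58% of its exon bases lie opposite another gene. Cc2d2a ranged from 37.2 to 58.2 cpm with WSB/EiJ below all other libraries and a span of 0.51 log2 (SE 0.0483, adjusted p = 1.44e-08). Ahi1, or jouberin, ranged from 84.3 to 112 cpm, Rpgrip1l from 12.7 to 20.8 cpm and Spata7, a partner of RPGRIP1, from 13.1 to 17.8 cpm. Rpgr, on the X chromosome, ranged from 17.7 to 24.4 cpm. In the strains with a library high in Xist it was 23.3, 23.3 and 24.4 cpm in 129S1/Svlmj, 19.9, 17.98 and 19.3 in C57BL/6J, 21.1, 17.7 and 18.2 in PWK/PhJ and 24.2, 23.03 and 24.4 in CAST/EiJ. The libraries high in Xist are replicate 3 of 129S1/Svlmj, C57BL/6J and CAST/EiJ and replicate 2 of PWK/PhJ.

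The 5 centriole and basal body genes had a median span of 0.81 log2, against 0.43 log2 for all genes, and 3 of the 5 were called in a strain, where 21.4% of all genes were, without a test of the difference. Poc1b (chr10:99107036-99198074), a centriole protein mutated in cone-rod dystrophy, was 16.4, 15.1 and 16.9 cpm in CAST/EiJ. It was 5.79, 5.92 and 5.69 cpm in 129S1/Svlmj, 5.98, 6.22 and 6.19 in C57BL/6J, 5.34, 6.08 and 5.83 in NOD/ShiLtJ, and 5.69, 6.09 and 6.69 in A/J. The last 3 strains held 8.76, 8.32 and 8.63 cpm in PWK/PhJ, 5.32, 5.03 and 4.83 in WSB/EiJ, and 5.80, 5.73 and 5.54 in NZO/HlLtJ. CAST/EiJ stood far above the other 21 libraries, PWK/PhJ came next and WSB/EiJ lay below all others. CAST/EiJ differed from the other 7 by 1.27 log2 (SE 0.0444, adjusted p = 9.10e-17), 2.41-fold. Its exons overlap other gene models for 30.1% of their bases, including 20.1% opposite Gm48768, whose strain means ran from 3.35 cpm in CAST/EiJ to 4.43 cpm in PWK/PhJ. With the counting strand not stated the level of Poc1b is uncertain, and the part of the overlapping genes in its difference was not tested.

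Fam161a (chr11:23007531-23030788), a microtubule-binding protein of the connecting cilium and basal body, was 60.2, 62.3 and 58.6 cpm in PWK/PhJ. It was 80.1, 86.4 and 92.8 cpm in 129S1/Svlmj, 110.4, 106 and 103 in C57BL/6J, 94.6, 94.7 and 98.2 in NOD/ShiLtJ, and 86.5, 88.6 and 84.4 in A/J. The other strains held 66.2, 70.8 and 65.4 cpm in WSB/EiJ, 101, 104 and 105 in NZO/HlLtJ, and 94.2, 91.4 and 90.5 in CAST/EiJ. PWK/PhJ lay below all other libraries, with WSB/EiJ next, and its difference from the other 7 was -0.57 log2 (SE 0.0350, adjusted p = 3.42e-12), 1.49-fold.

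Cep164 (chr9:45766946-45828691), a distal appendage protein by which the mother centriole docks at the membrane, was 38.6, 44.5 and 40.4 cpm in 129S1/Svlmj. Other values were 61.95, 73.1 and 64.3 cpm in C57BL/6J, 60.6, 57.3 and 68.3 in NOD/ShiLtJ, 67.4, 55.5 and 50.2 in A/J, and 69.8, 72.1 and 77.4 in PWK/PhJ. The rest were 83.9, 65.9 and 77.04 cpm in WSB/EiJ, 49.8, 55.9 and 59.99 in NZO/HlLtJ, and 68.6, 74.4 and 61.00 in CAST/EiJ. 129S1/Svlmj lay below all other libraries, and the difference was -0.65 log2 (SE 0.0777, adjusted p = 8.19e-07), 1.56-fold. The libraries of a strain spread widely here, and the SE is the largest of the 10 members called in a strain. Poc5, a centrin-binding protein, held 24.04, 22.4 and 22.6 cpm in NZO/HlLtJ and 19.3, 20.4 and 20.4 in A/J, with a span of 0.19 log2 (SE 0.0443, adjusted p = 0.00169), which missed the threshold without A/J replicate 1 (adjusted p = 0.0130) or NZO/HlLtJ replicate 1 (0.0143). It shares 25.7% of its exon bases with Ankdd1b on the other strand, so that its level is uncertain. Topors, a ubiquitin ligase found at the basal body, was the flattest member, with 23.7, 21.2 and 21.4 cpm in NOD/ShiLtJ and 20.9, 19.6 and 21.3 in A/J, 20.6 to 23.5 cpm elsewhere and a span of 0.09 log2 (SE 0.0518, adjusted p = 0.169).

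Axoneme genes passed the F-test in 4 of 4 cases, where 70.6% of all genes passed. Lca5 (chr9:83390293-83441127), which encodes lebercilin and is mutated in Leber congenital amaurosis, was 32.4, 33.8 and 29.99 cpm in PWK/PhJ. It was 50.1, 45.9 and 42.9 cpm in 129S1/Svlmj, 54.4, 50.6 and 56.3 in C57BL/6J, 55.7, 52.4 and 53.9 in NOD/ShiLtJ, and 58.5, 56.2 and 56.2 in A/J. The other strains held 47.9, 50.6 and 47.8 cpm in WSB/EiJ, 50.4, 49.5 and 51.1 in NZO/HlLtJ, and 40.5, 40.4 and 43.2 in CAST/EiJ. PWK/PhJ, the strain in which Fam161a was low, lay below all other libraries, with a difference of -0.63 log2 (SE 0.0404, adjusted p = 9.45e-12), 1.54-fold.

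Mak, a kinase that limits the length of the axoneme, held 108, 99.2 and 97.3 cpm in CAST/EiJ and 66.7, 57.3 and 65.4 in WSB/EiJ, and NOD/ShiLtJ was as low as WSB/EiJ, with 64.9, 62.8 and 64.4 cpm in NOD/ShiLtJ. The span of Mak was 0.68 log2 (SE 0.0510, adjusted p = 2.85e-10), and 4 pairs were called, each setting NOD/ShiLtJ or WSB/EiJ below PWK/PhJ or CAST/EiJ. Rp1, the most abundant member, held 1545, 1531 and 1683 cpm in CAST/EiJ and 1366, 1245 and 1234 in NOD/ShiLtJ, with 1243 to 1652 cpm in the other 18 libraries, which overlapped both ends. Its span was 0.31 log2 (SE 0.0645, adjusted p = 0.000613), and under quantile normalization it was 0 log2 (adjusted p = 1.00). That 0 is set by rank, since Rp1 held rank 10 in each library of both strains and equal ranks receive equal values. Rp1l1, its paralogue, ranged from 193 to 286 cpm with a span of 0.37 log2 (SE 0.0936, adjusted p = 0.00353) and no pair called.

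The tubby family ties ciliary cargo to membrane lipids. Tulp3 (chr6:128321161-128355851), an adaptor that joins complex A to membrane proteins, was 9.14, 9.77 and 8.37 cpm in CAST/EiJ. It was 5.64, 6.93 and 6.62 cpm in 129S1/Svlmj, 5.22, 5.60 and 5.50 in C57BL/6J, 6.26, 6.22 and 6.43 in NOD/ShiLtJ, and 6.83, 6.39 and 6.20 in A/J. The rest were 4.85, 4.95 and 4.67 cpm in PWK/PhJ, 4.40, 4.69 and 4.81 in WSB/EiJ, and 7.09, 6.44 and 7.58 in NZO/HlLtJ. CAST/EiJ lay above all other libraries, and its difference from the mean of the other 7 strains was 0.56 log2 (SE 0.0517, adjusted p = 3.92e-09), 1.48-fold. Tulp1, the photoreceptor form, held 232, 216 and 236 cpm in PWK/PhJ and 156, 197 and 161 in 129S1/Svlmj, and the other 18 libraries, at 149 to 231 cpm, covered nearly all of that range. Its span of 0.42 log2 (SE 0.125, adjusted p = 0.0115) missed the threshold with all 24 libraries and passed it without 129S1/Svlmj replicate 2 (0.52 log2, adjusted p = 0.00391). It also passed without C57BL/6J replicate 1 (adjusted p = 0.00945), WSB/EiJ replicate 1 (0.00887) or WSB/EiJ replicate 2 (0.00148), where Tulp1 was 149 cpm against 226 and 221 cpm in the other WSB/EiJ libraries.

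At the base of the outer segment, Prom1 and Cdhr1 act where new discs form, and both passed the F-test, as did 70.6% of all genes. Cdhr1, a photoreceptor cadherin, held 333, 302 and 322 cpm in NOD/ShiLtJ and 195, 195 and 189 in C57BL/6J, and the other 18 libraries lay between, at 198 to 298 cpm. The end strains overlapped no other library, and the span was 0.72 log2 (SE 0.0681, adjusted p = 1.29e-08). NOD/ShiLtJ differed from the other 7 by 0.46 log2 (SE 0.0515, adjusted p = 2.94e-07), below the minimum difference, and by 0.50 log2 (adjusted p = 1.62e-06) without the 3 libraries high in lens markers. Prom1, a membrane protein of the disc edge, held 311, 304 and 299 cpm in NZO/HlLtJ and 241, 246 and 228 in PWK/PhJ, with 237 to 314 cpm elsewhere and a span of 0.36 log2 (SE 0.0502, adjusted p = 5.53e-06). It shares 5.91% of its exon bases with Gm16401 on the other strand, which averaged 17.0 cpm in PWK/PhJ and at most 0.85 cpm in the other strains, so the Prom1 level in PWK/PhJ is uncertain.

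**Figure D3:**
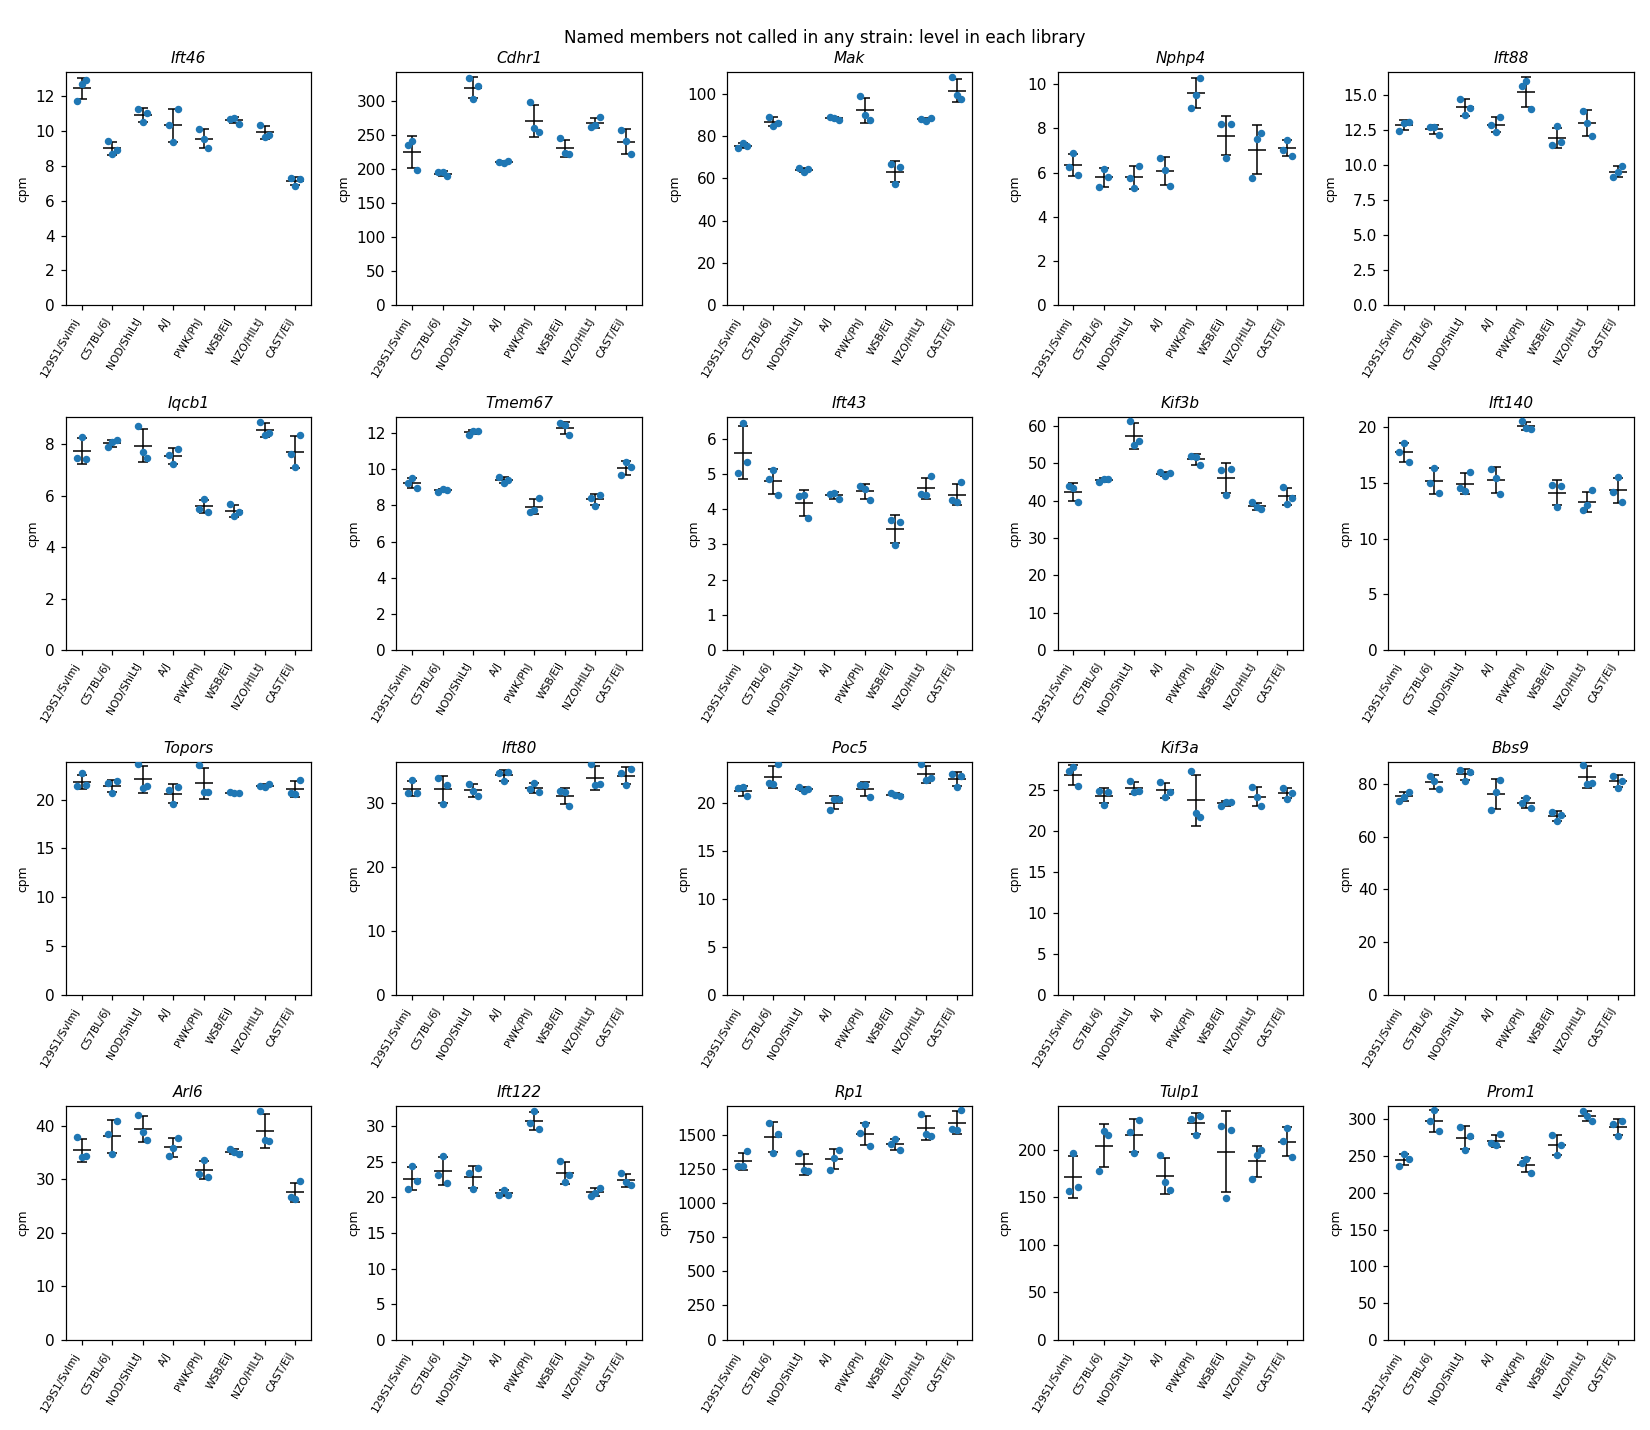
Level in cpm of the 20 named members not called in any strain, with a dot for each library and the mean ± SD of each strain (n = 3), all axes starting at 0. Ift46, Ift88 and Arl6 are lowest in CAST/EiJ, whereas Topors, Ift80, Poc5 and Kif3a are nearly level across the strains.

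Other cilium genes, 58 from lists written by role, were counted beside the members. Of these 58, 57 were tested, 50 passed the F-test, 87.7% against 70.6% of all genes, and 12 had a call in at least 1 strain, 21.1% against 21.4% of all genes. These were 16 calls higher and 16 lower, and the median span was 0.46 log2, against 0.43 log2 for all genes. Other transport, BBSome and motor genes had 2 of 17 called in a strain, 11.8%, and other transition zone, centriole and membrane genes 5 of 32, 15.6%, both below the 21.4% of all genes. The 8 Usher genes tested, which act at the periciliary membrane and calyceal processes, had 5 called, 62.5%, and a median span of 1.43 log2. Myo7a and Ush1c, both among the 5 called, reached the filter's mean of 0.5 cpm mainly through the strains where they were high, and Ush1g, also listed, missed it. Of 8 regulators tested, RFX factors and the photoreceptor factors Crx, Nrl and Otx2, 7 passed the F-test, 87.5%, and 2 were called, Rfx2 and Rfx7, 25.0%. None of these shares was tested against that of all genes.

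Myo7a, the motor myosin VIIa, held 34.5, 31.4 and 31.1 cpm in PWK/PhJ, and 12.6, 16.3 and 12.4 in C57BL/6J, and 0.251 to 0.842 cpm in the other 18 libraries, a span of 4.66 log2. Its mean reached the filter mainly through PWK/PhJ and C57BL/6J, so no p-value is given for this span. Ush1c averaged 2.68 ± 0.144 cpm in PWK/PhJ and 1.93 ± 0.122 cpm in WSB/EiJ (SD, n = 3) but reached at most 0.0480 cpm in C57BL/6J, 0.0807 cpm in NOD/ShiLtJ and 0.0915 cpm in CAST/EiJ, near the 3-read floor. Cdh23 was highest in WSB/EiJ, 3.93 ± 1.30 cpm, and lowest in C57BL/6J, 0.611 ± 0.231 cpm. Adgrv1 averaged 405 ± 14.1 cpm in WSB/EiJ and 148 ± 6.15 cpm in CAST/EiJ, and Pcdh15 303 ± 9.45 cpm in PWK/PhJ and 114 ± 9.02 cpm in CAST/EiJ. Invs, or inversin, averaged 12.5 ± 0.802 cpm in NZO/HlLtJ and 9.75 ± 0.828 cpm in CAST/EiJ, and 4.95 to 6.17 cpm in the other 6 strains. Wdr35, a complex A subunit, averaged 37.5 ± 1.93 cpm in PWK/PhJ and 16.9 ± 0.791 cpm in WSB/EiJ. Ttc30a2, a complex B gene, averaged 3.31 ± 0.452 cpm in NOD/ShiLtJ and 0.802 ± 0.234 cpm in 129S1/Svlmj, but 61.3% of its 31-base words occur in transcripts of other genes.

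**Figure D4:**
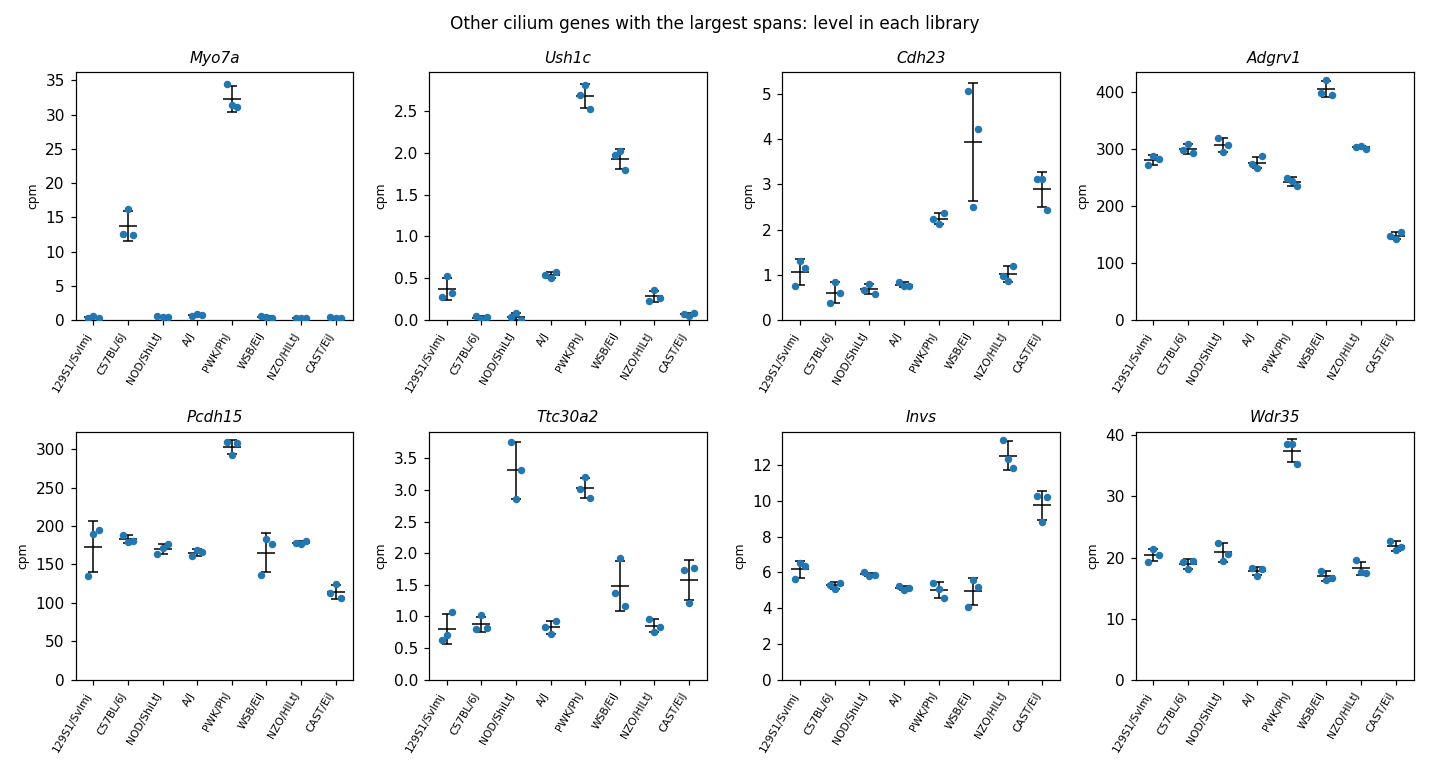
Level in cpm of the 8 other cilium genes with the largest spans, with a dot for each library and the mean ± SD of each strain (n = 3), all axes starting at 0. Myo7a is high in PWK/PhJ and C57BL/6J and under 1 cpm in the other 18 libraries.

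Promoter sequences were read from RefSeq on GRCm38.p6 for 46 of the 52 members, with 57 promoters of 300 bases from 250 before to 50 after a RefSeq transcript's start. Entries were missing for Ift80, Ift81, Ift122, Tmem67, Rp1 and Rp1l1. The X-box, the motif that RFX factors bind in many cilium genes, was searched on both strands as GTNNCC, then 3 bases of any kind, then GNAAC. It was found in 8 of the 46 members, 17.4%, against 2.49% of the 27025 genes in the promoter table. By role these were Bbs1, Bbs4 and Bbs7 of the BBSome, Ift22 and Ift57 of complex B, and Ahi1, Nphp4 and Tmem237 of the transition zone. The other cilium genes held it in 8 of 51. TAATCC, a motif that CRX binds in photoreceptor genes, occurred in Bbs1, Mak and Rpgrip1, 6.52% of the members, against 8.14% of all genes. A match describes the letters in the window and is not evidence of binding.

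The windows of the 3 called members that hold an X-box, and of Nphp4, which lay at the edge of a call, are given as examples chosen after their values were seen. Each is 30 bases of the gene's own strand, 5′ to 3′, with the 14 bases of the X-box in capitals. In the first Ift22 window and in that of Tmem237 the motif lies on the opposite strand, so their capitals show its reverse complement. The Bbs7 window, at chr3:36613489-36613518 on the minus strand, matches on both strands. Ift22 holds 2 windows side by side, at chr5:136908079-136908108 and chr5:136908109-136908138 on the plus strand. The Tmem237 window is at chr1:59120102-59120131 on the minus strand and the Nphp4 window at chr4:152477903-152477932 on the plus strand. Promoters follow the starts of RefSeq transcripts, of which a gene can have several, so the Tmem237 and Nphp4 windows lie inside the GENCODE coordinates of their genes.
Bbs7: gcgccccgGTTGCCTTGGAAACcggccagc
Ift22, first window: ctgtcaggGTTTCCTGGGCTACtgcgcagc
Ift22, second window: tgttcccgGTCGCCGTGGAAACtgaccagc
Tmem237: tagtcagcGTTGCCATGGCGACgcctccgg
Nphp4: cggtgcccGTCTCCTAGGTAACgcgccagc
The members of these windows were highest in different strains, with Bbs7 highest in C57BL/6J, Ift22 in CAST/EiJ, and Tmem237 and Nphp4 in PWK/PhJ.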

How the data were processed

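RNA from retinas was sequenced by the authors from rRNA-depleted, stranded libraries (TruSeq Stranded Total RNA with Ribo-Zero Gold) as paired-end reads on an Illumina HiSeq. They aligned reads to GRCm38 with STAR and counted them with Partek's expectation-maximization method against RefSeq, without stating versions or the counting strand. The deposited values are CPM, reads scaled by the library's total reads, with an offset of 0.0001, and sum to 332469 to 366567 per library. Below 20 reads, 87.6 to 89.9% of a library's values were whole reads within 0.02 reads, so no count test was used. Members were matched by symbol, and coordinates of 52 of 52 matched GENCODE, which gave exon lengths and overlaps here, although the methods name RefSeq. Which annotation the counts rest on is not settled. In limma 3.58.1 (R 4.3.3), log2(cpm + 1) was fitted by strain for the 16400 genes whose mean reached 0.5 cpm (lmFit, eBayes with trend), with two-sided Benjamini-Hochberg adjusted p-values over all genes (over all genes and 28 pairs for pairs). A call needed an adjusted p under 0.01 and, in contrasts, at least 0.5 log2. Sequences and figures used Python 3.11.15, pandas 2.3.3 and matplotlib 3.10.9. Values are given for the 20 members with the largest span among those past the F-test, the 4 with the smallest and the 8 other cilium genes with the largest spans. The gene with the highest mean cpm of each role group, not scaled to exon length, was added. The members and lists were chosen with earlier results of these data known, and 1 gene each was later left out of the rod and the other cilium lists. Alternatives varied the pseudocount, filter, scaling, adjustment, variance trend, a covariate for Xist, the minimum difference and the libraries. The fit was tested on simulated data.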

Additional observations from a re-analysis of the deposited data

How the results depend on the processing

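Across pseudocount, filter, scaling, Storey's q-value, variance trend, an Xist covariate, the minimum difference and left-out libraries, the counts of members kept their main values within 1.5-fold in 339 of 349 cases, and no difference between a named gene's end strains reversed. Without the minimum difference of 0.5 log2, 489 of the 1456 comparisons of a member between 2 strains were called, and the share of all genes is not given. By strain, this setting called 16 members in 129S1/Svlmj (21.7% of all genes), 15 in C57BL/6J (19.5%), 19 in NOD/ShiLtJ (19.6%), 13 in A/J (22.0%), 28 in PWK/PhJ (40.5%), 18 in WSB/EiJ (27.5%), 17 in NZO/HlLtJ (20.8%) and 22 in CAST/EiJ (40.5%), since the adjusted p alone then decides. Without the 3 libraries highest in lens markers, an alternative chosen after seeing the data, 1 member was called in NOD/ShiLtJ (Cdhr1) where 0 were with all libraries, and the cause was not tested. Leaving out each of the 24 libraries in turn gave 42 to 46 members past the F-test, 103 to 115 pairs, and 2 called in 129S1/Svlmj, 3 in C57BL/6J, 0 in NOD/ShiLtJ, A/J and NZO/HlLtJ, 3 to 4 in PWK/PhJ, 2 in WSB/EiJ and 4 in CAST/EiJ. Among the single-gene differences 1276 results kept their side of the threshold, 9 (7 for Tulp1, 2 for Kif3a) gained it, and 3 (2 for Poc5, 1 for Rp1) lost it. With a filter at a mean of 5 cpm, genes below that mean gave no value. No paired analysis was made because the labels carry library codes without shared replicate numbers. The study pooled its libraries for sequencing in randomized blocks, but the labels do not say which libraries shared a block. Read totals were enough to place all 52 members above 3 reads in each library, and 3 libraries a strain limit the precision of a strain's mean. The reference genome, the unstated counting strand and the cell composition of each retina were not varied. Sex, which the labels do not give, was varied only through the Xist covariate.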

Other observations

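Motile cilia, which photoreceptors do not carry, have their own genes, and 7 of 8 listed markers of motile ciliated cells were in the table. Their sum was 9.79 cpm in CAST/EiJ, 12.2 cpm in PWK/PhJ and 31.1 to 48.1 cpm in the other 6 strains, and Dnah9, an outer arm dynein heavy chain and the most abundant of the list over all libraries, made most of that gap. Dnah9 averaged 0.46 cpm in PWK/PhJ and 0.45 cpm in CAST/EiJ and held 13.7 to 31.8 cpm in the 18 libraries of the other 6 strains. Of the list, 3 genes, Dnah9 among them, passed the filter, and 3 of 3 passed the F-test, which 70.6% of all genes tested passed.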
